A study of Mus musculus with 2 samples.

Results

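Genes of glucose uptake, glycolysis and the response to low oxygen were compared between inflamed mouse skin given recombinant ZAG and inflamed skin that was not. The set is a list of 40 gene symbols, and a gene was measured where a probe on the array carried its symbol and no other. This held for 35 of the 40 genes, among 22180 genes measured in all. Ero1l was found under its current symbol, Ero1a. Aldoa, Bnip3l and Ankrd37 lay only on probes that also carry another symbol and are described apart, and no probe named for Gpi1 or Eno1 was used here.

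Both groups were female NC/Nga mice, which as an inbred strain readily develop dermatitis, and the disease was induced with an ointment of Dermatophagoides farinae extract. Mice entered at 6 weeks of age, the ointment was applied for 6 weeks, and dorsal skin was taken at 13 weeks. The control group is not labelled as given ZAG or a vehicle, and the ZAG group had in addition topical recombinant ZAG (zinc-alpha-2-glycoprotein, a secreted protein known for mobilising lipid from fat) at 1 µg/mL for 6 weeks. The design text names 3 mice in each group, but the deposited table holds 1 column per group, and the labels do not say if a column is 1 mouse, a pool or a mean. Each value below is therefore a single log2 expression value per group. There is thus no replicate error, interval or test, and the differences are those of 2 arrays. A difference is the log2 value with ZAG minus that in control, taken after averaging the probes of a gene.

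Glycolysis splits glucose into pyruvate in the cytosol, and lactate dehydrogenase and monocarboxylate transporters then turn pyruvate into lactate and carry it out of the cell. Hypoxia-inducible factors (HIF) raise many of these genes when oxygen is low: the HIF alpha subunits are hydroxylated by prolyl hydroxylases in the presence of oxygen and then degraded through the VHL protein. Epidermis is poorly oxygenated and strongly glycolytic, and proliferating keratinocytes and activated leukocytes are also known for high glucose use. Skeletal muscle, present in dorsal skin as a thin sheet, uses its own isoforms of several glycolytic enzymes.

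No gene of the set differed by 2-fold, and most leaned slightly lower with ZAG. Of the 35 measured genes, 24 were lower and 11 higher, with a median difference of -0.11 (Slc2a3 and Car9, near background on both arrays, included), against 0.01 over all 22180 genes. Of the 35, 31 had a mean level of at least 3.87 on the log2 scale, the median over all genes, below which no folds were counted. The 4 below it were Slc2a3, Ldha, Pdk1 and Car9. Among the 31, 22 (71%) were lower, beside 47.6% of the 11090 genes that pass this level, and 9 (29%) were higher, beside 52.3%. A difference under 1.2-fold either way was seen for 15 of the 31 (48.4%), beside 63.4% of all genes. The count of members past 2-fold was 0 in each direction, where among all genes that pass the level 1.15% were lower by that much and 0.271% higher. Past 1.5-fold, 2 of the 31 were lower (Epas1 and Slc16a3), beside 5.08% of all genes, and 2 were higher (Ldhb and Pgam2), beside 2.48%. These shares of 6.45% each rest on 2 genes, and Slc16a3 (1.504-fold) and Pgam2 (1.51-fold) sit at the threshold. The SD between probes of 1 gene in the same difference, pooled over 591 genes with several probes, was 0.244, a measure of probe error that says nothing of the spread between mice. The gauge of background was 3.16, the 95th percentile of the levels of 1394 olfactory and vomeronasal receptor genes, which skin is not known to use. In whole skin, fewer cells of a type and less RNA per cell cannot be told apart.

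**Figure D1:**
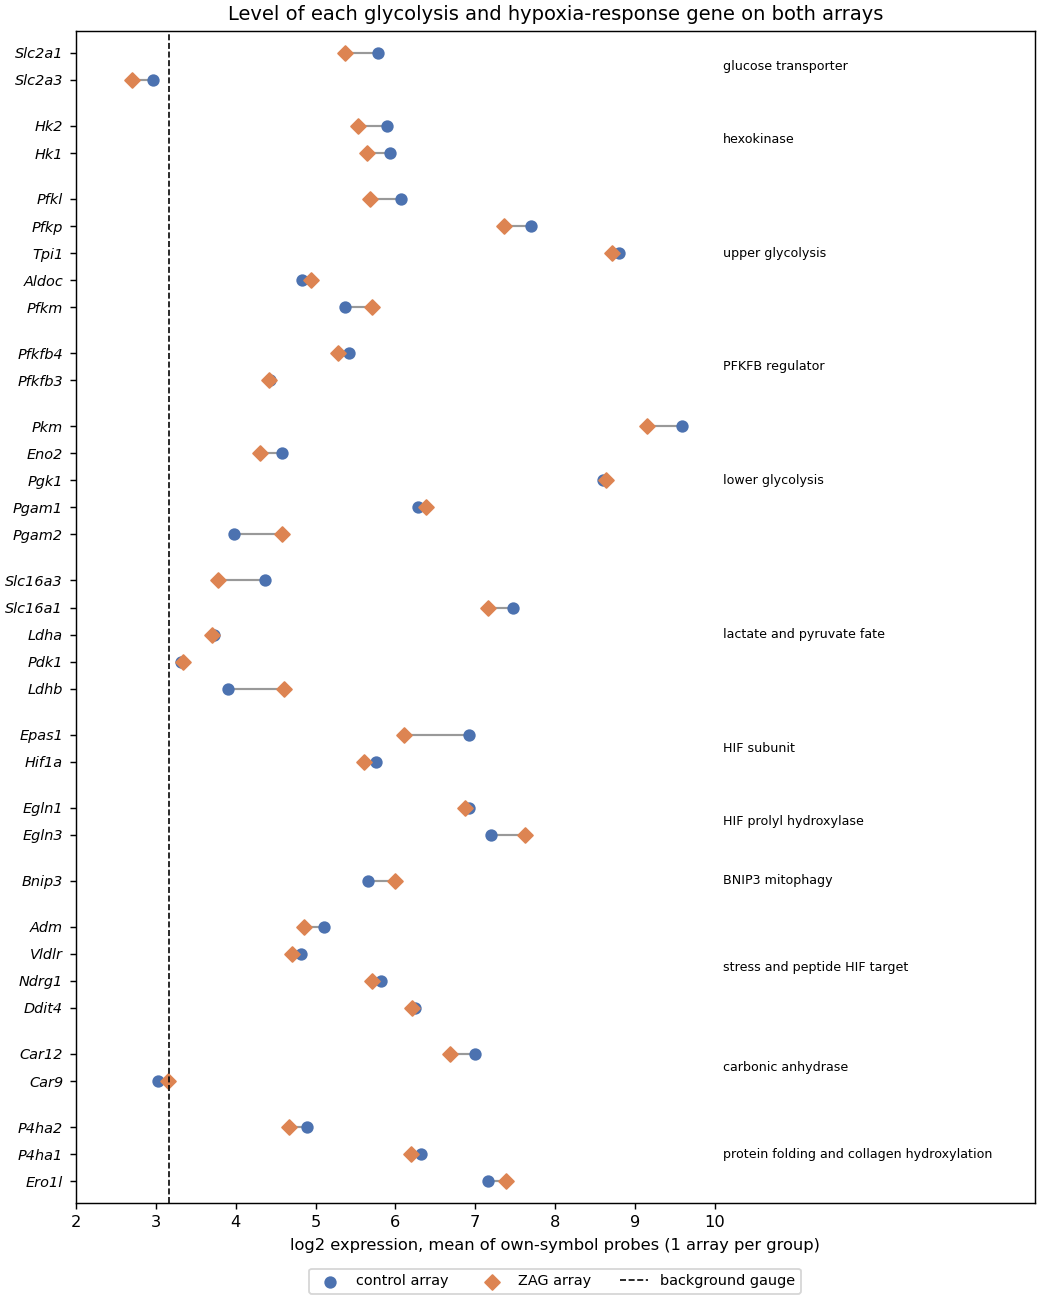
Log2 expression of the 35 measured genes (horizontal axis) on the control array (circles) and the ZAG array (diamonds), ordered by role, with the background gauge of 3.16 as a dashed line. The pairs lie close together, Epas1 is the furthest apart, and Slc2a3 and Car9 lie below the gauge on both arrays.

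Genes for the entry of glucose into the pathway were lower with ZAG on the own probes of each that could be read. Uptake of glucose itself was not measured. Slc2a1, the gene of the main glucose transporter of keratinocytes, was at 5.79 in control and 5.37 with ZAG. Its separate probes read 7.96 and 7.48, and 3.62 and 3.26, so both gave a lower value with ZAG. Slc2a3, a high-affinity transporter gene of neurons and leukocytes, was at 2.96 and 2.70. Both values lie below the gauge, so no direction is given for it. Hexokinases trap glucose in the cell by phosphorylating it. Hk2, the inducible hexokinase, was at 5.89 in control and 5.53 with ZAG, and Hk1, the housekeeping form, at 5.93 and 5.65. A probe that Hk1 shares with its antisense gene Hk1os read 3.46 in control and 3.85 with ZAG, the other way, and with that probe averaged in, the Hk1 difference turned from -0.28 to 0.06.

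The committed step of glycolysis, catalysed by phosphofructokinase, divided by isoform. Pfkl, the isoform named for liver, was at 6.07 in control against 5.69 with ZAG, a difference of -0.38. Pfkp, the isoform named for platelets, was at 7.69 and 7.36, a difference of -0.33. The muscle isoform Pfkm went the other way, from 5.37 in control to 5.71 with ZAG, a difference of 0.34. Pfkm thus stood 0.70 above the mean of the other isoforms of this step. The genes of the bifunctional enzymes that set the level of phosphofructokinase's activator hardly differed: Pfkfb3 was at 4.43 and 4.42, and Pfkfb4 at 5.41 and 5.28.

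Genes of the middle of the pathway differed little. Aldoc, an aldolase gene of brain, was at 4.83 in control and 4.95 with ZAG. Tpi1, the triose phosphate isomerase, was at 8.79 and 8.71, and Pgk1, the first enzyme of the pathway to return ATP, was at 8.60 and 8.64. Of these, Pgk1 changed sign after loess, to -0.02. The probe shared by Aldoa, the aldolase of muscle and most other tissues, and Aldoart1 read 4.90 in control and 5.18 with ZAG. Gapdh, the gene of the dehydrogenase between these steps, which is no member of the set, was at 9.46 and 9.40. Gapdh, Pgk1, Pgam1 and Ldha have near-identical copies or processed pseudogenes in the genome, which the annotation of the array does not always set apart, so their single values are uncertain.

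In the last steps, Pgam2 and Eno3, counted here as muscle isoforms, again stood above the other measured isoform of their step. Pgam1, the widely expressed phosphoglycerate mutase, was at 6.28 in control and 6.39 with ZAG, and its separate probes differed by 0.04 and 0.16. Pgam2, the muscle form, was at 3.98 and 4.58, which is 1.51-fold higher with ZAG and 0.50 above the difference of Pgam1. Eno2, the enolase of neurons and endocrine cells, was at 4.59 and 4.31, while Eno3, the muscle enolase and no member of the set, was at 8.02 and 8.75. The Eno3 difference was 1.01 above that of Eno2. Pkm, the pyruvate kinase gene of most tissues including muscle, was at 9.59 in control against 9.15 with ZAG, a difference of -0.43 (-0.52 after loess).

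**Figure D2:**
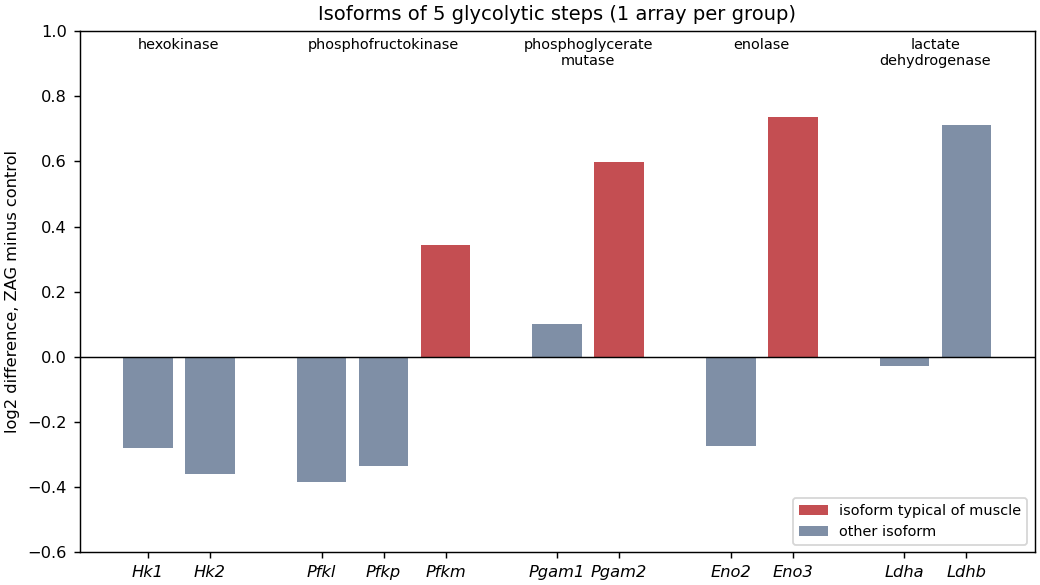
Log2 difference, ZAG minus control, for the isoforms of 5 glycolytic steps. Red marks Pfkm, Pgam2 and Eno3, the isoforms counted here as typical of muscle. Grey marks the others, Hk2 (-0.36) and Ldha (-0.03) among them, and does not mean that muscle lacks them. Pfkm (0.34), Pgam2 (0.60) and Eno3 (0.74) are above 0 and above the other isoforms of their step, and Ldhb (0.71), which is not counted as a muscle isoform here, is above Ldha (-0.03). The Ldha value is low on both arrays and uncertain.

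The step from pyruvate to lactate and its export held the 2 glycolysis genes past 1.5-fold other than Pgam2. Ldhb, the lactate dehydrogenase subunit typical of oxidative tissues such as heart, was at 3.90 in control and 4.61 with ZAG, 1.64-fold higher. Ldha, the subunit of glycolytic tissues and a classical HIF target, was at 3.73 and 3.70, low on both arrays and nearly level. This rests on 1 probe and, given the near-identical copies named above, is uncertain. Slc16a3, which encodes the monocarboxylate transporter that exports lactate from glycolytic cells, was at 4.37 in control and 3.78 with ZAG on its own probe. A further probe that it shares with the neighbouring kinase gene Csnk1d read 6.72 on both arrays, and with both probes averaged the Slc16a3 difference was -0.29, short of 1.5-fold and smaller in size than that of Pkm. Slc16a1, a transporter of lactate in either direction, was at 7.47 and 7.16. Pdk1, which encodes a kinase that keeps pyruvate out of mitochondria, was at 5.15 in control and 5.08 with ZAG on its brighter probe. Its other probe lay below the gauge on both arrays (1.47 and 1.61), and the mean of both gave 0.03.

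Over the 21 measured glycolysis genes the median difference was -0.13, with 14 lower and 7 higher. Without Pfkm and Pgam2 the median over the remaining 19 was -0.27, and 14 of the 19 were lower. That median is the value of Slc2a3, which lay below the gauge on both arrays, and without it the median over 18 genes was -0.20, with 13 lower. Their largest value in the higher direction was that of Ldhb.

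**Figure D3:**
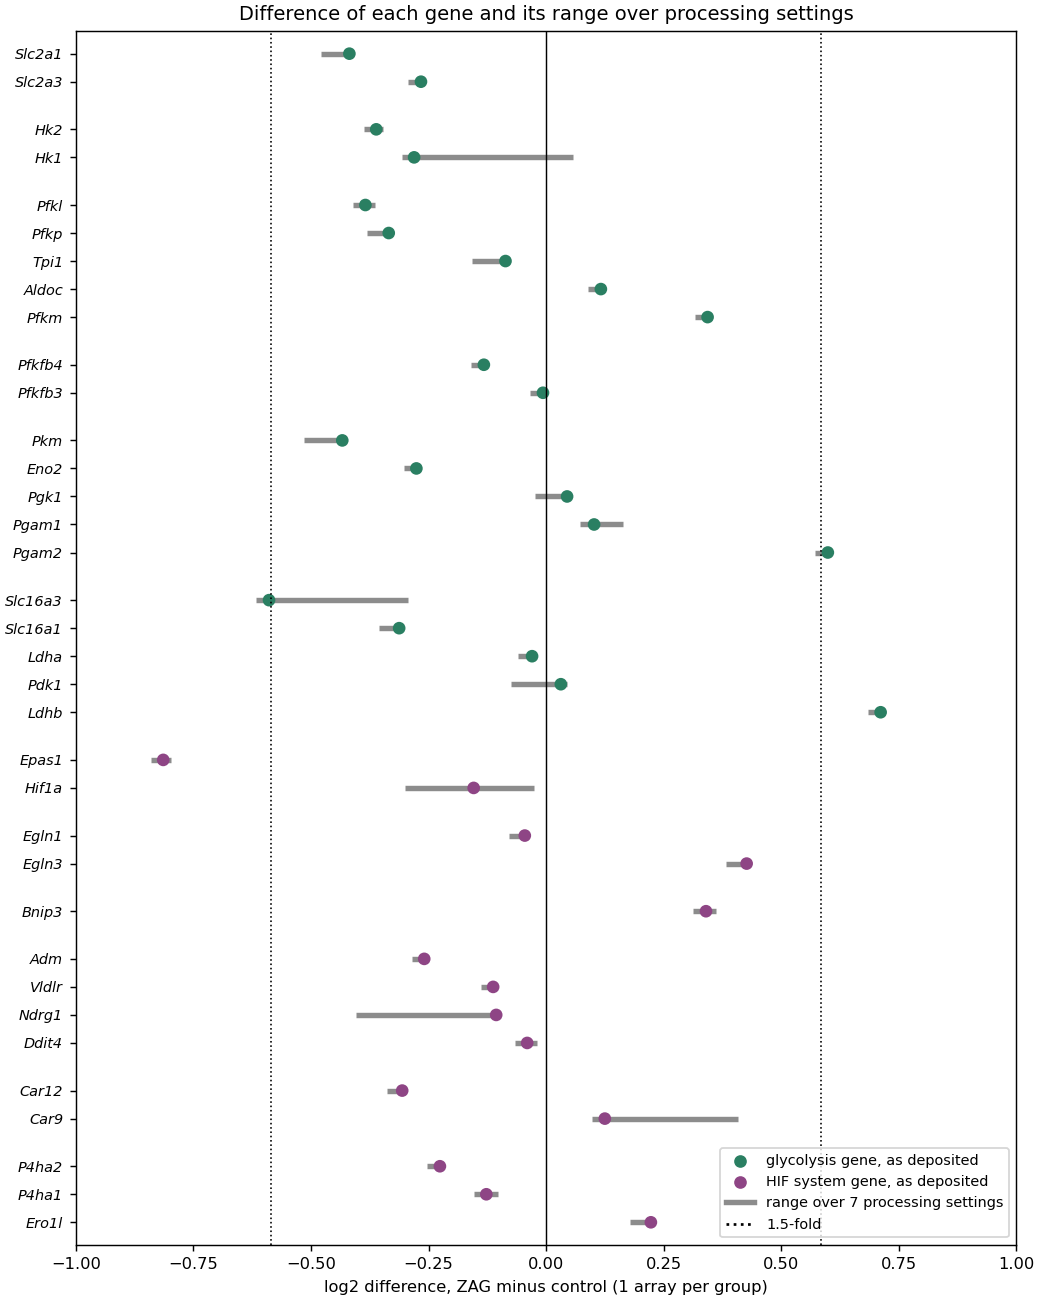
Log2 difference, ZAG minus control, of the 35 genes as deposited (points, green for glycolysis and purple for the HIF system) with the range over 7 processing settings as grey bars and 1.5-fold as dotted lines. Epas1 (lower) and Ldhb (higher) lie past 1.5-fold over their whole ranges, Slc16a3 and Pgam2 cross the line, and the bars of Hk1, Pgk1 and Pdk1 cross 0.

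Among the regulators of the hypoxia response, the HIF alpha subunit gene Epas1 was lower with ZAG and the prolyl hydroxylase gene Egln3 was higher. Epas1, the HIF alpha subunit best known from endothelium, was at 6.92 in control and 6.11 with ZAG. This was the largest difference of the set, -0.81 or 1.76-fold lower, and it stayed between -0.84 and -0.80 over 7 processing settings. Hif1a, the widely expressed alpha subunit, was at 8.62 in control and 8.33 with ZAG on its bright probe, while a probe below the gauge read 2.89 and 2.88. The mean of those probes differed by -0.15. The probe SD of 0.244 is larger than that. On the bright probe alone the difference was -0.30, larger in size than that SD. A probe that Hif1a shares with the pseudogene S100a11-ps read 3.25 and 3.48, the other way, and with it averaged in the Hif1a difference was -0.02. Hif3a, a further HIF alpha subunit gene and no member of the set, was at 2.93 in control, below the gauge, and 3.19 with ZAG, just above it. Egln1, the main oxygen-sensing prolyl hydroxylase, was at 6.92 and 6.88. Egln3, a prolyl hydroxylase gene that HIF itself induces, was at 7.20 in control against 7.63 with ZAG, a difference of 0.43.

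BNIP3 and its relative BNIP3L (NIX) direct the removal of mitochondria by autophagy. Bnip3 was at 5.66 in control and 6.00 with ZAG. The probe shared by Bnip3l and its pseudogene read 8.81 and 9.23, a value that cannot be assigned to either. Ero1l, whose product is the oxidase that drives disulphide formation in the endoplasmic reticulum, was at 7.16 and 7.38, and its separate probes gave 0.21 and 0.23. The collagen prolyl hydroxylase genes hardly differed: P4ha1 was at 6.32 and 6.20, and P4ha2 at 4.90 and 4.67, each less than the SD between probes of 1 gene.

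Of the remaining HIF targets, Adm and Car12 were lower with ZAG, Ddit4 and Vldlr hardly differed, and the probes of Ndrg1 and Car9 disagreed. Adm, which encodes the vasodilator peptide adrenomedullin, was at 5.11 in control and 4.85 with ZAG. Car12, a membrane carbonic anhydrase gene that takes part in pH control, was at 6.99 and 6.69. Its relative Car9, often used as a marker of hypoxic tissue, was at 3.03 and 3.15, below the gauge on both arrays as a mean, though 1 of its probes read 3.05 in control and 3.46 with ZAG. Ddit4, an inhibitor of the growth kinase mTOR, was at 6.25 and 6.21, and Vldlr, a lipoprotein receptor gene, at 4.81 and 4.70. Ndrg1, a stress and differentiation gene, gave -0.11 as a mean, but its probes disagreed: the bright one read 7.57 in control and 7.17 with ZAG, and the dim one 4.06 and 4.26. The probe that Ankrd37 shares with Lrp2bp read 4.05 and 3.73. Over the 14 measured genes of the HIF system the median difference was -0.11, with 10 lower and 4 higher.

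HIF binds a short core sequence, written A or G followed by CGTG, and the promoters of the set were searched for ACGTG and for GCGTG on both strands in the 250 bases before the most upstream start listed by RefSeq (GRCm38.p6). Of the 40 genes, 36 had an entry, and Slc2a3, Epas1, Bnip3l and Ndrg1 did not. ACGTG was found in 19 of the 36 (52.8%) and in 18.3% of 15379 protein-coding genes measured here, while GCGTG was found in 18 of the 36 (50%) and in 35.2% of those genes. Both motifs hold the pair CG, and the windows of the set were richer in it, with a median of 14 CG pairs and 62.8% G or C, against 11 pairs and 56.0%. The set was built partly from known HIF targets, so these shares describe how it was chosen. By direction, ACGTG was in 11 of the 21 genes lower with ZAG that had an entry and in 7 of the 11 that were higher. These counts take in small differences, such as Pfkfb3 (-0.007) among the lower and Pgk1 (0.04, -0.02 after loess) among the higher. The higher also include Car9, as a mean below the gauge on both arrays. The 6 sequences below are those of the 3 genes with ACGTG and the lowest differences and of the 3 with the highest, and are shown because genes with the same core motif differed in opposite directions. Each gives the 250 bases before the start in the direction of the gene, 5′ to 3′, with ACGTG on either strand in capitals. The palindrome CACGTG counts once on each strand.
Slc16a3, chr11:120948817-120949066, plus strand: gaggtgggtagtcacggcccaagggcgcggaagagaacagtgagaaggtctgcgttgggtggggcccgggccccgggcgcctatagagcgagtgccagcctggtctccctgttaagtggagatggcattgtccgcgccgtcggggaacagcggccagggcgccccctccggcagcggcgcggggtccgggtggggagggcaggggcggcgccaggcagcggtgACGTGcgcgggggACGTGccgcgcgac
Slc2a1, chr4:119108495-119108744, plus strand: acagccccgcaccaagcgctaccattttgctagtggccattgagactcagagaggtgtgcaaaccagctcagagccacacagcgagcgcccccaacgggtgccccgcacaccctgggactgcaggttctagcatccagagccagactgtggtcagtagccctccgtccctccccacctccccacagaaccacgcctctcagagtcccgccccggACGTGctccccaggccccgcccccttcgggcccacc
Hk2, chr6:82774455-82774704, minus strand: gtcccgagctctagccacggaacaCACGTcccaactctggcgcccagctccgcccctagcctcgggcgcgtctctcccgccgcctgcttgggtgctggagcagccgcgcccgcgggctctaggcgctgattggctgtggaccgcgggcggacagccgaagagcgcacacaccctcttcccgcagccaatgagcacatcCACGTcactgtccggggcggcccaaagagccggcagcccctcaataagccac
Bnip3, chr7:138909507-138909756, minus strand: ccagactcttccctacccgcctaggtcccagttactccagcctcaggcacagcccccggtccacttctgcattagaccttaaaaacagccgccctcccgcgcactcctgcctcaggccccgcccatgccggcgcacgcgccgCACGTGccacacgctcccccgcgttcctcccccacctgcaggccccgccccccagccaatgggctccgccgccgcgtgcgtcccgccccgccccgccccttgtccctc
Pfkm, chr15:98092339-98092588, plus strand: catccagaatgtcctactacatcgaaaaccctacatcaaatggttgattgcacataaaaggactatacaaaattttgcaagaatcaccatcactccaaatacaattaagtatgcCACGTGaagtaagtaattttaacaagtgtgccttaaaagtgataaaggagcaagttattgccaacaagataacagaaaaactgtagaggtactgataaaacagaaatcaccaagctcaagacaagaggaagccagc
Egln3, chr12:54203875-54204124, minus strand: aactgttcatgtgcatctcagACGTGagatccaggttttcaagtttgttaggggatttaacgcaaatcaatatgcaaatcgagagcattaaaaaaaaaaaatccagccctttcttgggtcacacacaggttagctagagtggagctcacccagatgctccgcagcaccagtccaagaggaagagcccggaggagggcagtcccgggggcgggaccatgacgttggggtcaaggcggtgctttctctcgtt
Slc16a3 has a pair of motifs close to its start and Slc2a1 a single one, and both genes were lower with ZAG (-0.59 and -0.42), as was Hk2 (-0.36). Egln3 has a single motif far from its start and was higher (0.43), as were Pfkm (0.34) and Bnip3 (0.34). A match is a string of letters and not a measured site of binding.

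Other genes of the same pathways did not follow the lower lean of the set. Their lists were drawn up for the comparison with earlier results of these data known. Of 27 measured genes of other glycolytic, glucose transport and pyruvate steps, 18 were higher and 9 lower, with a median of 0.13 (0.07 after loess). Among all 22180 genes, 11491 were higher and 10629 lower. Slc16a7, a high-affinity pyruvate and lactate transporter gene, was at 6.81 in control and 7.499 with ZAG and was the 1 gene of the list at least 1.5-fold apart. Pdhb, a subunit of the pyruvate dehydrogenase that feeds mitochondria, was at 7.25 and 7.76, and the glucose transporter gene Slc2a12 at 3.37 and 3.85. In the other direction, Slc2a8 was at 5.10 and 4.80, Slc2a6 at 3.53 and 3.20, and Hk3, the hexokinase of leukocytes, at 3.26 and 2.85, the latter below the gauge.

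Of 12 other HIF regulators, 10 were higher and 2 lower, with a median of 0.26, and none was 1.5-fold apart. Arnt, which encodes the beta subunit that every HIF alpha subunit binds, was at 7.16 in control and 6.76 with ZAG. Hif1an, the gene of the asparagine hydroxylase that restrains HIF, was at 5.51 and 5.34. Among genes of HIF degradation, Vhl was at 4.28 and 4.56 and Eloc, a subunit of the VHL ligase, at 6.54 and 7.08. The prolyl hydroxylase gene Egln2 was at 5.39 and 5.76. Siah2, a ubiquitin ligase that acts on the prolyl hydroxylases and not on HIF, was at 3.64 and 3.97.

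The 37 other hypoxia-response genes measured had a median difference near 0, with 18 higher and 19 lower, and past 1.5-fold, 3 were higher and 1 lower. Bhlhe40, a transcriptional repressor of the clock and hypoxia responses, was at 7.68 in control and 6.91 with ZAG. Vegfa, the angiogenic factor gene that is the best known HIF target, was at 6.24 and 5.77, Mxi1, a MYC antagonist, at 6.30 and 5.79, and Trib3, a stress pseudokinase gene, at 4.48 and 3.93. Higher with ZAG were Insig2, a brake on sterol synthesis (6.38 and 7.18), Ppp1r3c, which promotes glycogen storage (5.52 and 6.32), and Edn1, the gene of the vasoconstrictor endothelin (4.74 and 5.45).

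Most of the muscle genes listed were higher with ZAG, beside Pfkm and Pgam2. Of 13 measured genes listed for muscle energy supply outside the set, 11 were higher with ZAG, with a median of 0.33. Not all of the 13 are confined to muscle. Phkg1, a subunit of the kinase that starts glycogen breakdown in muscle, was at 3.89 in control and 4.84 with ZAG, and Pygm, the muscle glycogen phosphorylase, at 6.92 and 7.57. Lower were Gys1 (5.70 and 5.43), the glycogen synthase of muscle and other tissues, and by a trace Ldhd (3.60 and 3.59). Of 30 muscle fibre genes, 21 were higher, 10 of them at least 1.5-fold, and 3 at least 1.5-fold lower, with a median of 0.24. The log2 of their summed level was 11.54 in control and 11.98 with ZAG, and no member lay below the gauge on both arrays. The fast fibre genes Myh4 (6.95 and 8.54), Pvalb (6.27 and 7.39) and Mylpf (6.88 and 7.86) were higher. Other myosin genes of fast fibres, Myh2 (6.11 and 4.42) and Myh1 (7.21 and 6.29), were lower, as was Actn2 (6.18 and 5.36). Myosin genes are close copies, so their single values are uncertain. Muscle also uses Hk2, Ldha and Slc16a3, which were not counted as its isoforms. Their differences were -0.36, -0.03 and -0.59 on own probes. The part of muscle content in the values of Pfkm and Pgam2 was not tested.

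**Figure D4:**
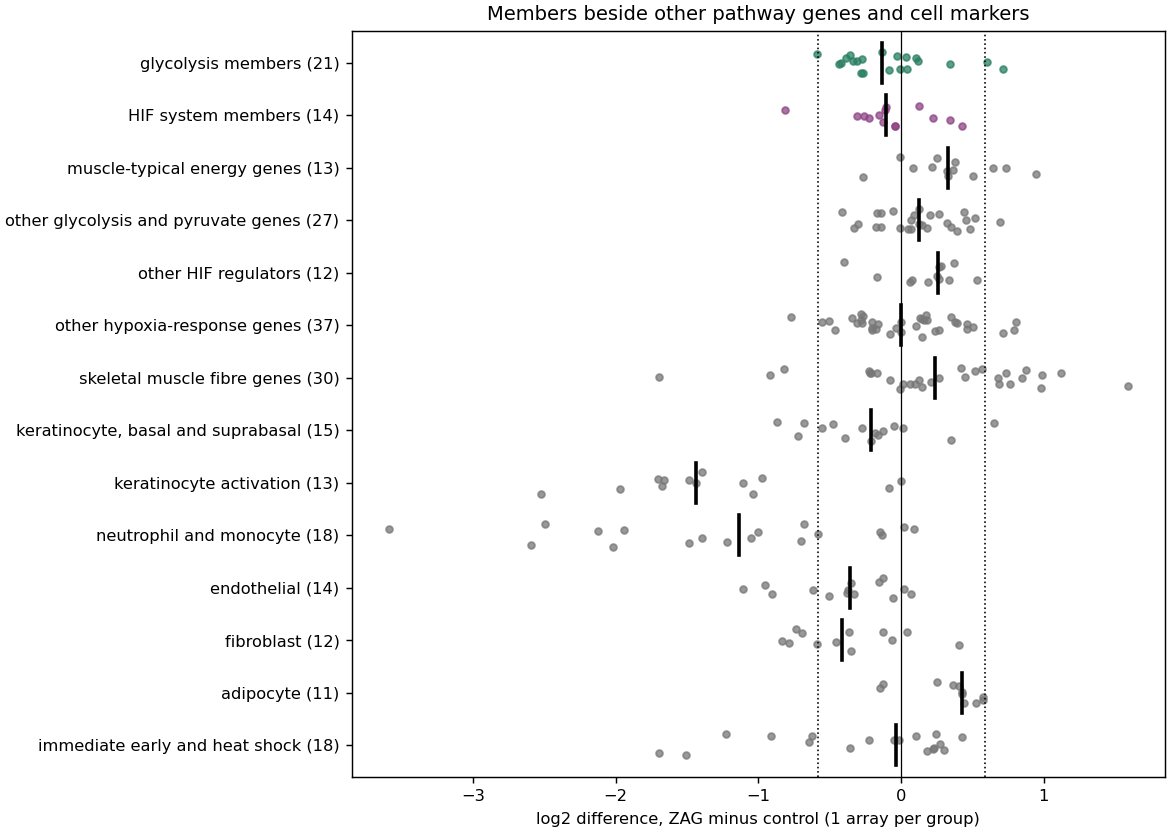
Log2 difference, ZAG minus control, of each measured gene (points) in the glycolysis and HIF system sets and in the other lists, with the number of genes in parentheses, the list median as a black bar and 1.5-fold as dotted lines. Medians of the glycolysis and HIF system genes (-0.13 and -0.11) lie near 0, those of keratinocyte activation and of neutrophils and monocytes (-1.44 and -1.14) far below it, and that of adipocytes (0.42) above it.

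Markers of several cell types in the tissue differed by more than the set did. Defining keratinocyte genes were well above the gauge on both arrays, such as Krt10 at 12.15 and 12.16. No measured marker of keratinocytes, fibroblasts or adipocytes lay below the gauge on both arrays. Among 15 keratinocyte genes the median was -0.21, with 12 lower, the log2 summed level being 14.24 in control and 14.05 with ZAG. Krt14, the basal keratin, was at 11.35 and 10.62, the hemidesmosome integrin gene Itgb4 at 6.60 and 5.73, and Dsg3 at 8.60 and 7.91, while Ivl was at 7.67 and 8.32 and Dsg1a at 9.07 and 9.42. Keratinocyte activation genes were lower in 12 of 13, with a median of -1.44 and a summed level of 14.03 and 12.75, and Serpinb3a alone was not lower (7.92 on both). These values stood beside those of Slc2a1, Hk2, Pfkp and Pkm, and their part in them was not tested.

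Neutrophil and monocyte genes were lower in 16 of 18, with a median of -1.14 and a log2 summed level of 11.71 and 10.67. S100a8 and S100a9 are in this list and in that of keratinocyte activation, so the lists are not separate. Adgre1 (5.27 and 5.36) was not lower, and the neutrophil gene Ly6g was below the gauge on both arrays. This list was lower beside Slc16a3 and Hk3, and its part in their values was not tested. Endothelial genes were lower in 12 of 14, with a median of -0.36, a summed level of 9.77 and 9.12, and no member below the gauge on both arrays. Among them Eng was at 7.54 in control and 6.43 with ZAG, Plvap at 6.88 and 5.93, and Cdh5 at 7.48 and 6.57, while Tek (5.48 and 5.55) and Egfl7 (4.92 and 4.94) were near level. These endothelial values were lower beside Epas1 (6.92 and 6.11) and Vegfa, and their part in the Epas1 value was not tested.

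Fibroblast genes were lower in 10 of 12, with a median of -0.41 and a log2 summed level of 13.58 and 13.32. Pdgfrb was at 7.04 in control and 6.21 with ZAG, Pdgfra at 8.54 and 7.75, and Thy1 at 7.66 and 6.93, while Dcn (11.55 and 11.59) and Fap (4.96 and 5.37) were not lower. Adipocyte genes were higher in 9 of 11, with a median of 0.42 and a log2 summed level of 11.75 and 12.21, led by Fabp4 (10.45 and 11.02), Plin1 (5.55 and 6.12) and Cd36 (8.77 and 9.30), with Pnpla2 (7.12 and 6.97) and Lipe (5.69 and 5.57) lower. Of 8 red blood cell genes, 1 was measured on a probe of its own, Slc4a1 at 3.78 and 3.73. Immediate early and heat shock genes, which are known to respond to tissue handling, were lower in 10 of 18, with a median of -0.03, a mean of -0.29 and a log2 summed level of 11.19 and 11.04. Nr4a1 was at 5.95 and 4.25, Fos at 5.55 and 4.04, and Dusp1 at 7.62 and 6.39, while Hsph1 was at 6.41 and 6.84, Dnajb1 at 6.73 and 7.04, and Egr2 at 6.23 and 6.50. The part of handling in the values of the set was not tested.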

How the data were processed

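Skin RNA of 2 groups was hybridised to Affymetrix arrays after biotin labelling of sense cDNA, per the labels' protocols. The deposited numbers were read as log2 values from their range (0.889 to 12.75 in control, 0.866 to 13.19 with ZAG). For the authors' background correction, summarisation and normalization, the sources used here give no method. The column medians were 3.33 and 3.36. With 1 array per group, array number limits the precision and no test was made.

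Of 33793 probes, the platform annotation gave 1 symbol for 23521, several for 1814 and none for 8458. Probes with 1 symbol were averaged per gene (22180 genes), with no pseudocount. Folds were counted among the 11090 genes at or above the median level. The genes of the set and the 13 lists were chosen with earlier results of these data known. Named were all members and up to 3 genes each way per list at or above the gauge on at least 1 array, with Gapdh, Eno3, Vegfa and Vhl whatever their values. Ly6g, Hif3a and the Csnk1d, Hk1os, Lrp2bp and S100a11-ps probes were named after their values were seen. S100a8 and S100a9 were named because lists share them. The lowest genes of the keratinocyte activation list and of the neutrophil and monocyte list were not named. Alternatives were median centring, quantile normalization, loess (span 0.3), the brightest probe, shared probes, other level filters and list means. The code was checked on permuted values with added shifts and on a simulated offset. This checks the arithmetic and not the reported differences. Software was statsmodels 0.14.6 (loess), pandas 2.3.3, numpy 2.4.6 and, for plots, matplotlib 3.10.9, under Python 3.11.15.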

Additional observations from a re-analysis of the deposited data

How the results depend on the processing

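No paired analysis was possible because each group has 1 array with no replicate number, and for the same reason no replicate could be left out. The count of genes at least 2-fold apart stayed at 0 under every setting run. The count at least 1.5-fold higher went from 2 to 1 with median centring and with loess, where Pgam2 was at 0.57, and to 0 among genes above the 75th percentile of all levels. The count at least 1.5-fold lower went from 2 to 1 at that percentile and with shared probes. The glycolysis median of -0.13 was -0.058 with shared probes, -0.20 at or above the median level and -0.27 without Pfkm and Pgam2, and, with Slc2a3 left out as well, again -0.20. The last 2 alternatives were added after the data were seen. The HIF system median and the Pfkm and Pgam2 contrasts moved little under any setting. Between 23 and 25 of the measured members were lower under the settings of scaling and probes. Among the other lists, the hypoxia-response median of -0.0009 turned to 0.011 with quantile normalization and 0.035 as a mean. The median of other glycolysis and pyruvate genes was 0.070 after loess, and the mean of other HIF regulators 0.17. Keratinocyte genes had -0.30 with quantile normalization and -0.29 with loess. Fibroblast genes had -0.51 with loess and -0.51 with the brightest probe. As means, keratinocyte activation had -1.31, neutrophils and monocytes -1.28 (-1.22 as a median at or above the median level), adipocytes 0.34 and immediate early and heat shock genes -0.29. The level filters admit fewer genes by construction, and the cause of the other shifts was not tested. Signal near background limits Slc2a3, Car9, Ldha and Pdk1.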
